A study of Mus musculus with 6 samples.

Results

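The 36 genes described here are imprinted: in mouse each is known to be expressed mainly from the copy inherited from 1 parent, in all tissues or in some. They were chosen by symbol from a list of known imprinted genes, and all 36 were among the 31529 genes of the deposited table. Hearts were taken from wild-type fetuses of ICR mice, an outbred stock, with no treatment named in the labels. The first group was of gestational day 16.5 (E16.5) and the other of day 18.5 (E18.5), each with 3 libraries of polyadenylated RNA that the design text calls biological replicates. The number of hearts or litters behind a library was not stated, so p-values measure the spread between these libraries. The reads were not separated by parental allele, so the allele named for a gene is background and not a measurement.

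Imprinted genes lie in clusters in which a control region carries methylation on the maternal or the paternal copy. The methylation directs long noncoding RNAs, insulators or promoters so that genes are expressed mainly from 1 parental copy. Neighbouring genes can be expressed from the same copy or from opposite copies. Many of the products act on fetal growth: IGF2 promotes it, whereas IGF2R, GRB10 and CDKN1C restrain it. Expression of many of these genes is high before birth and is lowered in several organs as growth slows after birth. The list covers 17 domains, with 22 genes known as paternally expressed, 11 as maternally expressed, and 3 (Gnas, Blcap and Trappc9) for which the allele depends on transcript or tissue.

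Several abundant members are also precursors of microRNAs, which polyadenylated RNA libraries do not measure in their mature form. RefSeq places 1 hairpin each inside H19, Igf2, Mest, Rtl1 and Usp29 on the same strand, 3 inside Rian and 14 inside Mirg (GRCm38.p6). Inside Meg3, 1 hairpin was counted but 3 mature forms are placed. Of these, miR-1906 starts at 109544588 and miR-770-5p at 109563710, too far apart for 1 hairpin, so the count for Meg3 is incomplete. The mature forms from H19, Igf2 and Mest are shown because these hosts each averaged over 100 FPKM, with the seed, bases 2 to 8 from the 5′ end, in capitals. No seed is shared among the 6, and the 26 mature microRNAs within Mirg hold 25 seeds.
mmu-miR-675-5p: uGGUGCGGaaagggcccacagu
mmu-miR-675-3p: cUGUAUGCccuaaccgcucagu
mmu-miR-483-5p: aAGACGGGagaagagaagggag
mmu-miR-483-3p: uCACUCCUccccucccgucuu
mmu-miR-335-5p: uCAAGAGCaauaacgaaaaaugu
mmu-miR-335-3p: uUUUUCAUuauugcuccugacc

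Promoters are shown for 4 of the 7 members whose libraries did not overlap between the stages, Nap1l5 and Magel2, higher at E18.5, and Plagl1 and Igf2r, lower. Each is the 250 bases before a RefSeq start site on GRCm38.p6, printed 5′ to 3′ on the strand of the gene, and the start site used for Plagl1 lies inside the annotated span of that gene. Capitals mark TGCCGC or its reverse complement GCGGCA, the hexamer that the zinc finger protein ZFP57 binds when methylated to keep imprints in place.
Nap1l5 promoter, chr6:58907127-58907376, minus strand: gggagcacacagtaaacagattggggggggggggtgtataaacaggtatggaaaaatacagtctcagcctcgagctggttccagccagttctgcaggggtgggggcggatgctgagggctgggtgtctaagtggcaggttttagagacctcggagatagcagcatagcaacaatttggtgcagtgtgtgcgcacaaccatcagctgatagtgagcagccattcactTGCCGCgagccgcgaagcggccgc
Magel2 promoter, chr7:62376729-62376978, plus strand: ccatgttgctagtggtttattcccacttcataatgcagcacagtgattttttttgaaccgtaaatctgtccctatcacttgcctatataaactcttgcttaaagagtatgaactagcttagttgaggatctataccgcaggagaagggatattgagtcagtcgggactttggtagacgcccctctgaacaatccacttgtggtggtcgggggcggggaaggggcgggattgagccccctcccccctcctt
Plagl1 promoter, chr10:13090582-13090831, plus strand: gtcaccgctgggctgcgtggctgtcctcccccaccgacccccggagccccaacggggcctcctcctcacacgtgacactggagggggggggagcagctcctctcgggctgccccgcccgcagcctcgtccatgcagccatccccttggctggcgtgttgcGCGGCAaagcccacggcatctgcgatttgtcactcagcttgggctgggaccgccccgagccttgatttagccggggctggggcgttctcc
Igf2r promoter, chr17:12769707-12769956, minus strand: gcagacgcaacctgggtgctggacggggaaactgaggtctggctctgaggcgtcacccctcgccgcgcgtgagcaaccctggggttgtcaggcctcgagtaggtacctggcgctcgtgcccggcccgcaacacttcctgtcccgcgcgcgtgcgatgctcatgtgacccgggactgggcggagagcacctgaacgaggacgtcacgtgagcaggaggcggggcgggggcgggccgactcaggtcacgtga
The hexamer was found once before Nap1l5, once before Plagl1 and not before Magel2 or Igf2r. Of the members without overlap that are not shown, Ppp1r9a and Rian had windows without the hexamer, and Peg10 had no window. These windows held 10 CpG dinucleotides for Nap1l5, 7 for Magel2, 19 for Plagl1 and 27 for Igf2r, where the median of all 32841 windows was 6. Of 48 windows of the 29 members with an entry, some of which overlap, 7 held the hexamer (14.6%), against 8.68% of all windows. Among the 7 are 2 Mest windows that nearly coincide. The hexamer itself holds a CpG, and member windows had a median of 8 CpG, against 6 for all. The part of CpG content in these shares was not tested. The 6 genes with a match were Meg3, Mest, Nap1l5, Plagl1, Zdbf2 and Zim1. The match for Zdbf2 was in a window at chr1:63200108-63200357, outside the annotated span of the gene (63273265 to 63314576). The Zdbf2 window at the start of that span (63273019 to 63273268) was without the hexamer.

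Estimated counts summed to between 61443414 and 77237333 per library. Mitochondrially encoded genes took between 25.2% and 41.4% of the counts in 5 libraries and 19.9% in E16.5 replicate 2. That library stood apart from its own stage: its log2 CPM correlated at 0.970 and 0.974 with its fellow E16.5 libraries, and at 0.985 and 0.983 with replicates 2 and 3 of E18.5. Xist was abundant in E16.5 replicates 2 and 3 (965 and 1353 CPM) and in E18.5 replicate 3 (1189 CPM), and at most 14.6 CPM elsewhere, so the sexes are not balanced between the stages, and the part of sex in the results was not tested. Heart muscle markers were present throughout, with Myh6, Myh7, Tnnt2 and 8 further cardiomyocyte genes summing to between 35897 and 48895 CPM per library.

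Mean levels of the imprinted genes ran from 0.105 to 699.5 FPKM, and 5 genes held most of the signal. By FPKM, which is scaled per length and allows genes to be compared, 5 members averaged over 100 (H19 699.5, Gnas 248, Mest 230.2, Igf2 198 and Cdkn1c 141) and together made up 83.2% of the summed FPKM of the 36. In each of the 6 libraries H19 was the highest. Gnas, Mest and Igf2 had FPKM ranges of 214 to 282, 119 to 399 and 168 to 235, and Gnas was above Igf2 in each of the 6 libraries. Mest was above both in E16.5 replicate 2 and in E18.5 replicates 2 and 3, and below both elsewhere, so its place is not fixed by these libraries. A second tier of 9 members lay between 10 and 100 FPKM, led by Plagl1 (48.6), Grb10 (43.1), Igf2r (42.5) and Meg3 (34.4). There were 14 members between 1 and 10, and 8 at 1 or below, which were Phlda2, Rtl1, Zdbf2, Peg12, Kcnq1ot1, Mkrn3, Trappc9 and Usp29. Phlda2, which restrains placental growth, had 4, 34, 0, 7, 0 and 8 counts in the 6 libraries in order of stage and replicate, and was the 1 member that did not pass the filter on low counts. FPKM is scaled to all counts of a library, mitochondrial ones included, and for the plot of levels E16.5 replicate 2 lies to the right for many genes. Stages are compared on CPM after TMM scaling, in the order of replicates 1, 2 and 3, and TMM-scaled CPM say nothing of which of several genes is more abundant per length.

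**Figure D1:**
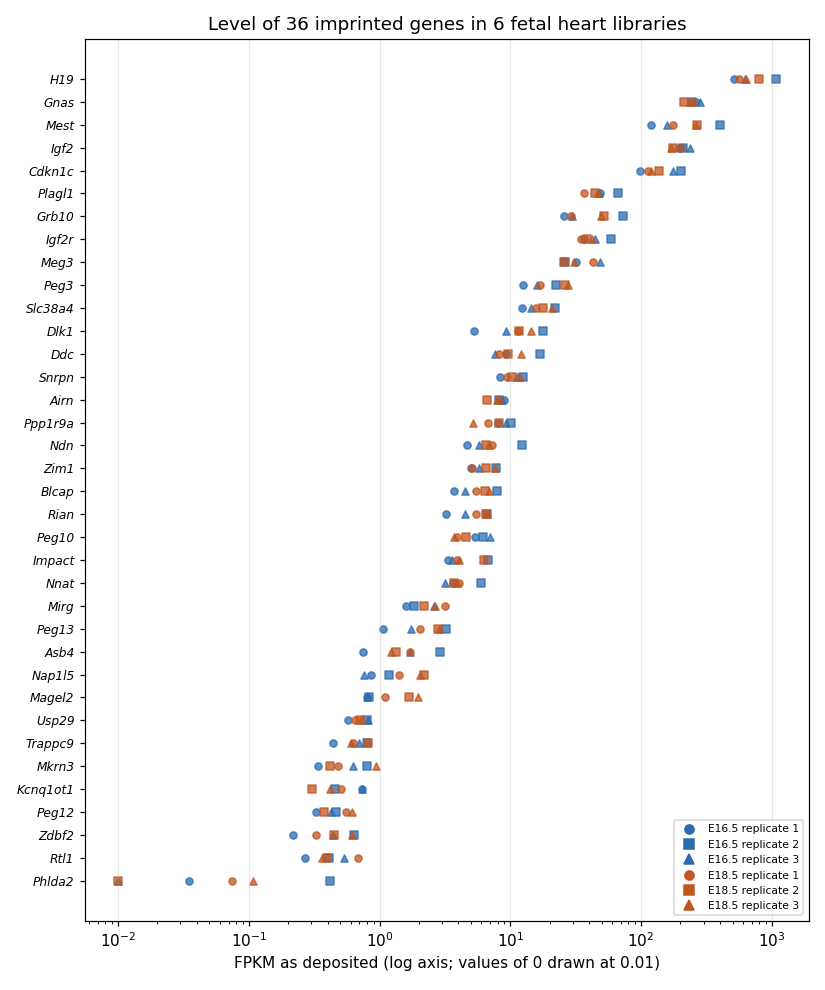
FPKM as deposited (log axis) of the 36 imprinted genes in each of the 6 libraries, ordered by mean, with stage by colour and replicate by symbol. H19 averages 699.5 FPKM and Phlda2 0.105 FPKM, and for most genes the symbols of both stages mix.

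Between E16.5 and E18.5, 0 of the 35 tested members passed an adjusted p under 0.05 (edgeR quasi-likelihood, Benjamini-Hochberg over 19959 genes), where 0.150% of all genes did (0.0952% higher and 0.0551% lower at E18.5). DESeq2 called 2, Peg10 and Plagl1 (adjusted p = 0.0256 for both), where it called 2.48% of all genes with an adjusted p. At an unadjusted p under 0.05 in edgeR there were 9 members, 3 higher and 6 lower at E18.5, or 25.7% of the list beside 9.53% of all genes (4.83% higher, 4.70% lower). The median log2 change of the 35 was -0.041 with 16 above and 19 below 0, and the median over all tested genes was -0.0019. The 10 maternally expressed members tested had a median of -0.21 with 7 below 0, and the 22 paternally expressed ones a median of -5.4e-04 with 11 below 0. In 7 members the libraries of 1 stage all lay above those of the other, 3 higher and 4 lower at E18.5, which is 20.0% of the 35 beside 16.5% of all tested genes (8.45% higher, 8.02% lower). In whole-heart RNA, fewer cells of a type and less RNA per cell cannot be told apart.

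**Figure D2:**
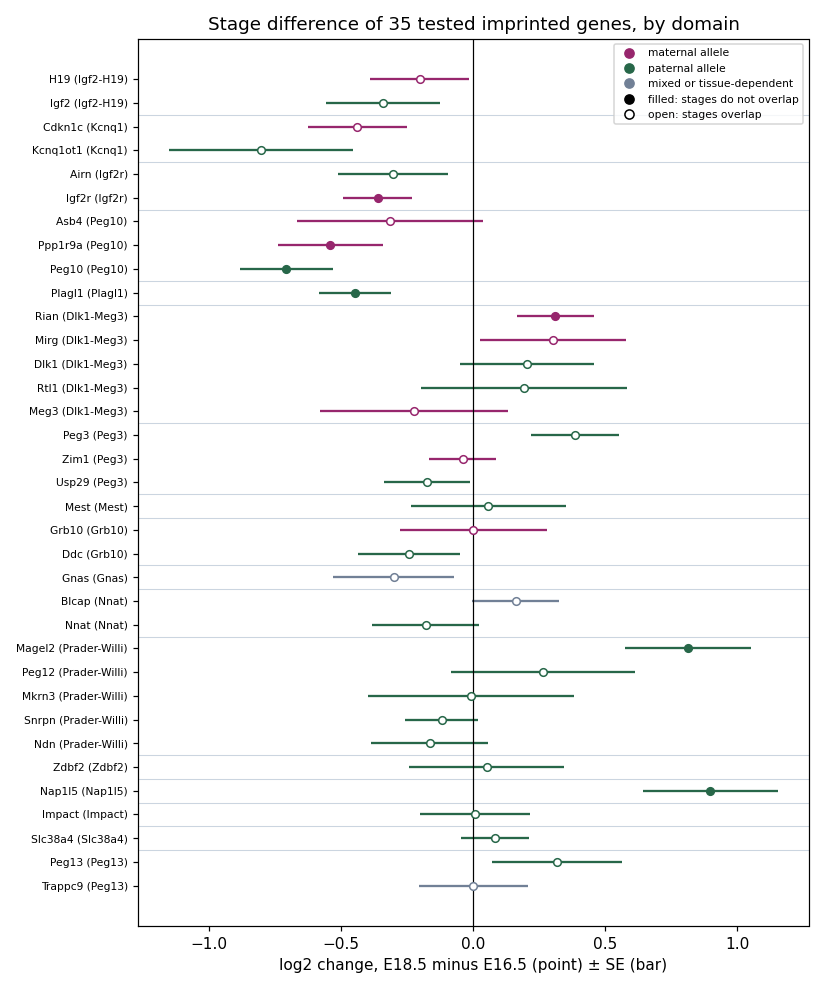
Log2 change from E16.5 to E18.5 (points) with its SE (bars) for the 35 tested imprinted genes, grouped by domain, with colour for the expressed allele known from other work. Filled points mark the 7 genes whose stages do not overlap, from Nap1l5 (0.90) to Peg10 (-0.71).

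The lower values at E18.5 were clearest in the Peg10 domain on chromosome 6 and in Plagl1 and Igf2r. Peg10 (ENSMUSG00000092035, chromosome 6, 4747306 to 4760517 on GRCm38, as all gene positions here), a paternally expressed gene derived from a retrotransposon and needed for placental growth, measured 48.4, 36.9 and 55.2 CPM in the E16.5 libraries and 30.7, 30.7 and 24.5 CPM in the E18.5 libraries. Every E18.5 library lay below every E16.5 library, and the log2 change was -0.71 ± 0.18 (SE, adjusted p = 0.252, unadjusted p = 0.00357, edgeR). Without E16.5 replicate 2, the lowest of its stage, the adjusted p was 0.0416, in a fit that called 371 genes of the table in place of 30. With any of the other 5 libraries left out it was between 0.418 and 0.706. Its neighbour Ppp1r9a (ENSMUSG00000032827, chromosome 6, 4902917 to 5165661), which encodes the actin-binding protein neurabin and is maternally expressed in some tissues, measured 157, 131 and 161 CPM in the E16.5 libraries and 116, 119 and 74.0 CPM in the E18.5 libraries. Those stages did not overlap either (log2 change -0.54 ± 0.20, adjusted p = 0.440), and E18.5 replicate 3 was the lowest. Asb4, a maternally expressed ankyrin and SOCS box gene of the same domain, measured 4.0, 10.2 and 8.01 CPM in the E16.5 libraries and 7.85, 5.30 and 4.73 CPM in the E18.5 libraries, with the stages mixed and E16.5 replicates 1 and 2 at the ends.

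Plagl1 (ENSMUSG00000019817, chromosome 10, 13060504 to 13131694), the zinc finger factor also named ZAC1, measured 517, 463 and 447 CPM in the E16.5 libraries and 335, 349 and 363 CPM in the E18.5 libraries. All 3 libraries at E18.5 lay below all 3 at E16.5, and the log2 change of -0.45 ± 0.14 had an adjusted p of 0.353. In mouse, ZAC1 is known to regulate a network of imprinted genes that includes Igf2, H19, Cdkn1c and Dlk1. Those 4 members had log2 changes of -0.34, -0.20, -0.44 and 0.20, with adjusted p from 0.511 to 0.816.

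Igf2r (ENSMUSG00000023830, chromosome 17, 12682406 to 12769664) encodes the receptor that carries IGF2 to lysosomes, and it measured 462, 486 and 495 CPM in the E16.5 libraries and 378, 361 and 384 CPM in the E18.5 libraries. The stages were apart by more than the spread within either, with a log2 change of -0.36 ± 0.13 (adjusted p = 0.431). Airn, the paternally expressed antisense RNA that silences Igf2r on its own chromosome, measured 71.4, 43.1 and 61.2 CPM in the E16.5 libraries and 56.3, 39.7 and 46.2 CPM in the E18.5 libraries, a log2 change of -0.30 ± 0.21 with overlapping stages. The genes overlap on opposite strands, and Igf2r held 819% of the counts of Airn. Whether reads were assigned by strand was not stated, so the level of Airn is uncertain.

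Igf2 (ENSMUSG00000048583, chromosome 7, 142650766 to 142666816), the main growth factor gene of the fetus, measured 1526, 1073 and 1605 CPM in the E16.5 libraries and 1360, 1014 and 945 CPM in the E18.5 libraries. E16.5 replicate 2 fell among the E18.5 libraries, and the log2 change of -0.34 ± 0.22 had an adjusted p of 0.641. H19 (ENSMUSG00000000031, chromosome 7, 142575529 to 142578143), the maternally expressed noncoding RNA that shares its enhancers, measured 1816, 2498 and 1962 CPM in the E16.5 libraries and 1718, 2095 and 1641 CPM in the E18.5 libraries. Here E16.5 replicate 2 was the highest of the 6, whereas for Igf2 it was the lowest of its stage. The log2 ratio of Igf2 to H19 (FPKM + 1) was -1.37, -2.34 and -1.41 in the E16.5 libraries, and -1.46, -2.17 and -1.91 in the E18.5 libraries. It was lowest in E16.5 replicate 2, and the difference between stages of -0.14 was smaller than the SD at either stage (0.55 and 0.36; exact permutation p = 0.8, two-sided).

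In the Kcnq1 domain, both tested members had lower means at E18.5 with overlapping stages. Cdkn1c (ENSMUSG00000037664, chromosome 7, 143458339 to 143461050), which encodes the cell cycle inhibitor p57 and is maternally expressed, measured 272, 367 and 428 CPM in the E16.5 libraries and 268, 282 and 237 CPM in the E18.5 libraries. Only E16.5 replicate 1 fell within the range of E18.5, and the log2 change was -0.44 ± 0.19 (unadjusted p = 0.0459, adjusted p = 0.511, edgeR). Kcnq1ot1 (ENSMUSG00000101609, chromosome 7, 143203458 to 143296549), the paternally expressed antisense RNA that silences the domain, measured 93.2, 37.6 and 81.4 CPM in the E16.5 libraries and 55.3, 28.4 and 37.9 CPM in the E18.5 libraries. It had the widest spread of the 35 tested members, with the highest library at 3.28 times the lowest, and the log2 change of -0.80 ± 0.35 (adjusted p = 0.520) went with SDs of 29.3 and 13.7 CPM at the stages. Kcnq1, on the other strand, held 37.1% of its counts, so the level of Kcnq1ot1 is uncertain. In FPKM, Kcnq1ot1 ran from 0.30 to 0.74, below the 1 added for ratios. The stage difference in the log2 ratio of Kcnq1ot1 to Cdkn1c was 0.091, and -0.23 with 0.1 added.

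Nap1l5 and Magel2 were the members with the largest differences towards higher values at E18.5, both at low levels. Nap1l5 (ENSMUSG00000055430, chromosome 6, 58905233 to 58907076), a paternally expressed retrogene of the nucleosome assembly protein family, measured 2.17, 1.95 and 1.69 CPM in the E16.5 libraries and 3.03, 4.07 and 3.72 CPM in the E18.5 libraries. The stages did not overlap, at a log2 change of 0.90 ± 0.26 (adjusted p = 0.326). It lies within Herc3, whose counts, from the opposite strand, were 634% of its own and which had a log2 change of 0.18 ± 0.24, so its level too is uncertain. Magel2 (ENSMUSG00000056972, chromosome 7, 62377010 to 62381640), a MAGE family gene of the Prader-Willi region that acts with a ubiquitin ligase in protein recycling, measured 5.09, 3.45 and 4.43 CPM in the E16.5 libraries and 6.02, 7.83 and 8.93 CPM in the E18.5 libraries. Its 3 E18.5 libraries lay above the 3 E16.5 libraries (log2 change 0.81 ± 0.24, adjusted p = 0.338), and no gene with over 10% of its counts overlaps it.

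The other Prader-Willi genes had smaller differences than Magel2. Necdin (Ndn), its close relative and neighbour, averaged 29.8 ± 9.16 CPM (E16.5) against 26.6 ± 3.97 CPM (E18.5), a mean ± SD over 3 libraries as for every such pair of values, with E16.5 replicate 2 the highest. Snrpn, which encodes a core splicing protein, had a log2 change of -0.12, Peg12 of 0.26 and Mkrn3, a regulator of puberty timing, of -0.0089, all 3 with overlapping stages. Their adjusted p, with that of Ndn, ran from 0.796 to 0.995.

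**Figure D3:**
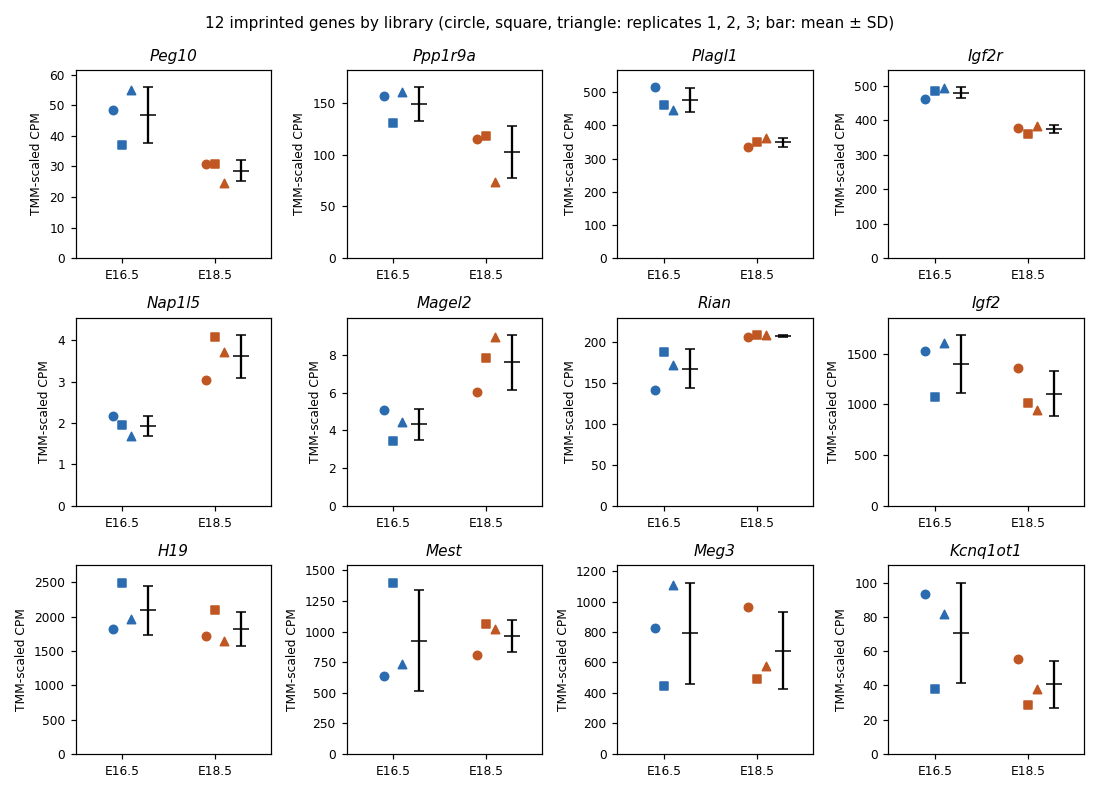
TMM-scaled CPM of 12 imprinted genes in each library (symbols), with the mean and SD of each stage beside them, axes starting at 0. In Peg10, Ppp1r9a, Plagl1, Igf2r, Nap1l5, Magel2 and Rian the stages do not overlap, while Igf2, H19, Mest, Meg3 and Kcnq1ot1 overlap and E16.5 replicate 2 (square) lies apart from the other E16.5 libraries.

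In the Dlk1-Meg3 domain on chromosome 12, 1 of the 5 members (20%), Rian, did not overlap between stages, beside 16.5% of all tested genes. Meg3 (ENSMUSG00000021268, chromosome 12, 109541001 to 109571726), Rian and Mirg are maternally expressed noncoding RNAs on the same strand. Meg3 measured 826, 445 and 1107 CPM in the E16.5 libraries and 964, 492 and 579 CPM in the E18.5 libraries, and each stage spanned much of the range of the other (log2 change -0.23 ± 0.36). Rian (ENSMUSG00000097451, chromosome 12, 109603940 to 109661716), the host of C/D small nucleolar RNAs, measured 141, 188 and 172 CPM in the E16.5 libraries and 205, 208 and 208 CPM in the E18.5 libraries. The E18.5 libraries of Rian had an SD of 1.59 CPM and lay above all of E16.5 (log2 change 0.31 ± 0.15, adjusted p = 0.546). Mirg, the microRNA host, averaged 16.8 ± 5.54 CPM (E16.5) against 20.7 ± 5.77 CPM (E18.5). Of the paternally expressed genes, Dlk1, a transmembrane protein of the Notch ligand family, measured 40.9, 89.0 and 62.5 CPM in the E16.5 libraries and 75.5, 66.0 and 80.2 CPM in the E18.5 libraries, with E16.5 replicate 1 the lowest and replicate 2 the highest of all. Rtl1, a retrotransposon-derived gene needed in placental vessels, averaged 2.90 ± 0.994 CPM (E16.5) against 3.32 ± 1.58 CPM (E18.5).

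Of the 3 genes of the Peg3 domain on chromosome 7, Peg3 itself had an unadjusted p under 0.05 (edgeR), where 9.53% of all genes had one. Peg3 (ENSMUSG00000002265, chromosome 7, 6703892 to 6730431), a paternally expressed zinc finger gene, measured 229.8, 271 and 261 CPM in the E16.5 libraries and 269, 354 and 372 CPM in the E18.5 libraries. Only E18.5 replicate 1 fell into the range of E16.5 (log2 change 0.39 ± 0.17, unadjusted p = 0.0463, adjusted p = 0.511, edgeR). Its maternally expressed neighbour Zim1 measured 55.0, 56.0 and 55.1 CPM in the E16.5 libraries and 48.1, 53.2 and 60.3 CPM in the E18.5 libraries, and Usp29, which starts beside Peg3 on the other strand, averaged 14.9 ± 2.42 CPM (E16.5) against 13.1 ± 0.439 CPM (E18.5). The log2 ratio of Peg3 to Zim1 was the 1 of 10 ratios without overlap, at 1.31 ± 0.13 (E16.5) against 1.71 ± 0.14 (E18.5; SD, n = 3; exact permutation test, two-sided p = 0.1, the smallest that 3 against 3 allows, and 0.75 adjusted over the 10).

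Grb10 (ENSMUSG00000020176, chromosome 11, 11930508 to 12038683), an adaptor that dampens insulin and IGF receptor signalling, measured 314, 589 and 322 CPM in the E16.5 libraries and 308, 477 and 440.0 CPM in the E18.5 libraries. The means of the stages were alike (both 408 CPM, SE of the log2 change 0.28), while E16.5 replicate 2 was far above its fellow E16.5 libraries. Ddc, dopa decarboxylase, is known to be expressed from the paternal copy in the heart muscle of mouse fetuses. It measured 56.3, 67.2 and 40.5 CPM in the E16.5 libraries and 42.7, 43.2 and 52.8 CPM in the E18.5 libraries, with the highest and lowest library both at E16.5 (log2 change -0.24 ± 0.19). The log2 ratio of Ddc to Grb10 differed by -0.25 between stages, with overlap.

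Mest (ENSMUSG00000051855, chromosome 6, 30723547 to 30748465), a paternally expressed hydrolase-family gene, measured 639, 1401 and 736 CPM in the E16.5 libraries and 810.1, 1062 and 1017 CPM in the E18.5 libraries. E16.5 replicate 2 was the highest and its fellow E16.5 libraries were the lowest of all 6, and the log2 change was 0.057 ± 0.29. Mest shares 912 identical bases with Copg2, which overlaps it on the other strand at 77.5 CPM. Gnas (ENSMUSG00000027523, chromosome 2, 174284320 to 174346744), which encodes the stimulatory G protein subunit and several alternative transcripts summed here, measured 4056, 2493 and 3827 CPM in the E16.5 libraries and 3334, 2437 and 2651 CPM in the E18.5 libraries, a log2 change of -0.30 ± 0.23. The amino acid transporter Slc38a4 averaged 75.5 ± 6.69 CPM (E16.5) against 79.9 ± 6.03 CPM (E18.5), and its highest library was 1.22 times its lowest, the narrowest range of the 35. Impact, which limits activation of the kinase GCN2, averaged 25.4 ± 4.85 CPM (E16.5) against 25.5 ± 6.09 CPM (E18.5).

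The Nnat and Peg13 domains and Zdbf2 overlapped between stages. Nnat, a proteolipid of the endoplasmic reticulum, measured 9.09, 9.77 and 6.90 CPM in the E16.5 libraries and 8.81, 6.81 and 7.13 CPM in the E18.5 libraries. Its host gene Blcap measured 15.4, 21.5 and 16.4 CPM in the E16.5 libraries and 19.5, 19.4 and 20.7 CPM in the E18.5 libraries, and E16.5 replicate 2 was the highest library for both. The stages of the pair were mixed, with log2 changes of -0.18 ± 0.20 and 0.16 ± 0.16. Peg13, a noncoding RNA within Trappc9, measured 6.84, 13.6 and 9.73 CPM in the E16.5 libraries and 11.3, 13.2 and 13.2 CPM in the E18.5 libraries, with E16.5 replicate 1 the lowest. Trappc9, a subunit of a vesicle trafficking complex, measured 6.12, 7.18 and 8.42 CPM in the E16.5 libraries and 7.37, 8.33 and 6.04 CPM in the E18.5 libraries. The zinc finger gene Zdbf2 averaged 5.87 ± 1.84 CPM (E16.5) against 6.08 ± 1.49 CPM (E18.5). Nnat and Blcap overlap on opposite strands, and Peg13 and Trappc9 overlap on the same strand, so the levels of these 4 are uncertain. Of near-identical copies (at least 95% identity over 300 bases), those of Cdkn1c and Snrpn were at 0.126 and 0.114 CPM, and Igf2, Meg3, Usp29 and Kcnq1ot1 share stretches with genes that have no value of their own here or one of at most 0.982 CPM.

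**Figure D4:**
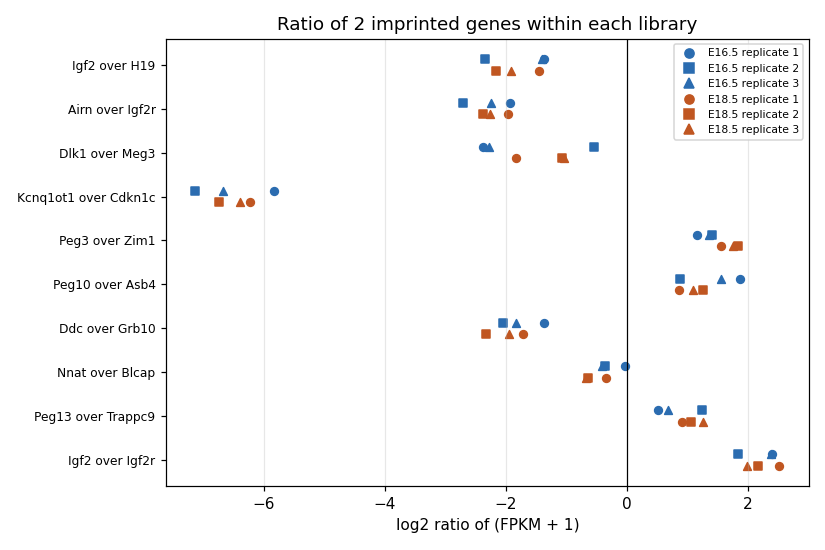
Log2 ratio of FPKM + 1 between 2 imprinted genes in each library (symbols) for 10 pairs, most of them neighbours read from opposite parental copies. Peg3 over Zim1 is the 1 pair whose stages separate, at 1.31 and 1.71, and Igf2 over H19 spans -2.34 to -1.37 within E16.5.

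Of the other 9 ratios, all overlapped between stages. The exact p ran from 0.3 to 1. The ratio of Igf2 to Igf2r, the growth factor and the receptor that clears it, was 2.20 ± 0.32 and 2.22 ± 0.27 (log2, SD, n = 3). Dlk1 over Meg3 varied most within a stage, from -2.38 in E16.5 replicate 1 to -0.54 in E16.5 replicate 2.

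The spread among libraries of 1 stage was larger than the difference between stages for most members: in 12 of 35 the stage difference exceeded the pooled SD within a stage (34.3%, beside 39.8% of all tested genes). On the log2 scale, E16.5 replicate 2 was above the mean of its fellow E16.5 libraries by 1.03 for Mest, 0.89 for Grb10, 0.81 for Dlk1, 0.79 for Asb4 and 0.71 for Ndn. It differed from them by -0.66 for Gnas and -0.54 for Igf2. Of the 7 noncoding RNAs among the members it was below its fellows for 4, at -1.20 for Kcnq1ot1, -1.10 for Meg3, -0.65 for Mirg and -0.61 for Airn, and above them for the other 3, at 0.40 for H19, 0.27 for Rian and 0.71 for Peg13. E18.5 replicate 1, the library of its stage with the highest mitochondrial share (33.5%), stood on the other side of its stage for many of the same genes, at 0.75 for Kcnq1ot1, 0.85 for Meg3, 0.39 for Gnas, -0.57 for Grb10 and -0.36 for Mest. For other genes named above it stood on the same side, at 0.60 for Asb4, 0.35 for Ndn and 0.053 for Dlk1. The 2 deviations had opposite signs in 26 of 35 members, and in 66.6% of all tested genes. The mitochondrial share of the libraries moves with this pattern. The summed erythroid markers do too, at 9475, 23822 and 15565 CPM in the E16.5 libraries, where replicate 2 was the highest, and 8999, 16710 and 21118 CPM in the E18.5 libraries, where replicate 1 was the lowest. The part of either in the pattern was not tested.

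**Figure D5:**
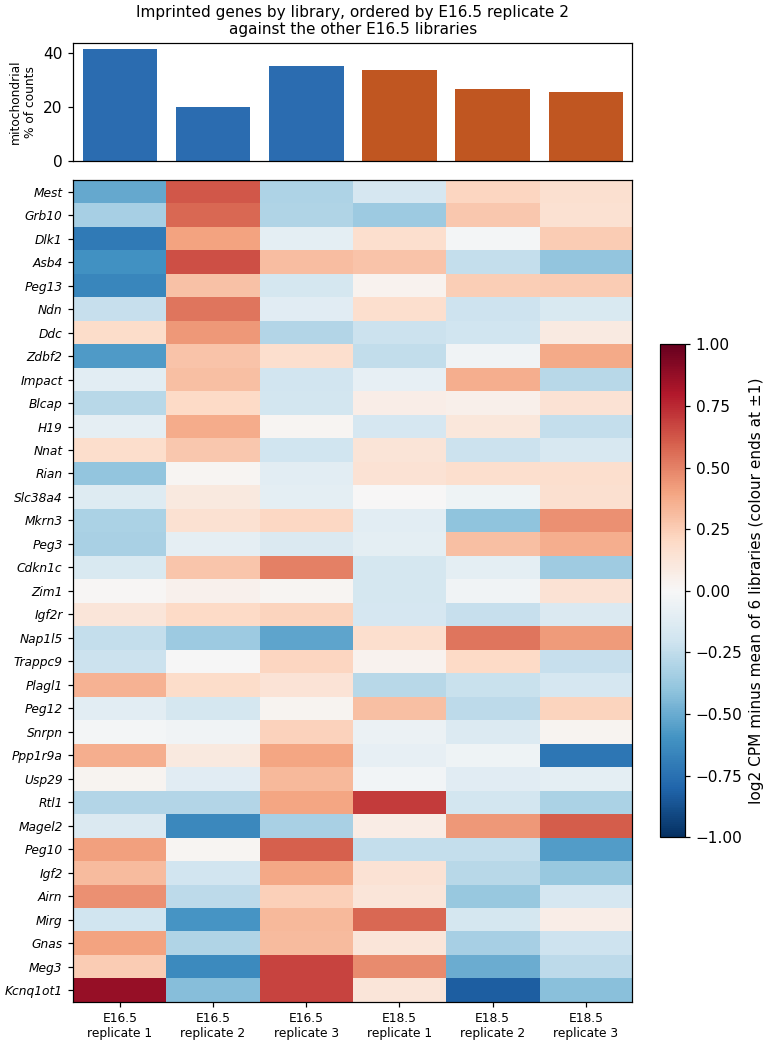
Log2 CPM minus the mean of the 6 libraries for the 35 tested imprinted genes (colour, ends at ±1), with the mitochondrial percent of counts of each library as bars above. E16.5 replicate 2, at 19.9%, is high for the genes at the top (Mest, Grb10, Dlk1) and low for those at the bottom (Gnas, Meg3, Kcnq1ot1), where E16.5 replicates 1 and 3 are high.

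With E16.5 replicate 2 left out, 16 members had an unadjusted p under 0.05 (of all genes, 23.4% did), and 18 did not overlap between stages, where 44.0% of all genes did not. Peg10 was the 1 member called, with 1.78% of all genes. The log2 change was then 0.49 for Mest (adjusted p = 0.112), -1.11 for Kcnq1ot1 (adjusted p = 0.0607) and -0.50 for Igf2 (adjusted p = 0.128). With the mitochondrial share as a term in the fit, 0 members were called, and Peg10 was at -0.62 (adjusted p = 0.0723).

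Markers of several cell types of the heart also differed between stages. The 11 fibroblast markers summed to 2314 to 3639 CPM in the E16.5 libraries and 3890 to 5093 CPM in those of E18.5, and 1 of them, Mfap5, rose (adjusted p = 0.0415, edgeR). The 9 epicardial markers summed to 165 to 176 CPM (E16.5) and 218 to 279.8 CPM (E18.5), with Krt19 called higher, and the 8 smooth muscle and pericyte markers to 614 to 670 and 855 to 916 CPM. The 12 mitotic genes summed to 1197 to 1587 CPM (E16.5) and 1002 to 1084 CPM (E18.5), with 0 called. Of all genes tested, 0.150% were called. At an unadjusted p under 0.05 (edgeR), 5 mitotic genes were lower and 0 higher. At that level, 5 fibroblast, 5 epicardial and 4 smooth muscle and pericyte markers were higher and 0 lower. Of all genes, 4.83% were higher and 4.70% lower at that level. Endothelial markers (657 to 820 and 753 to 842 CPM), macrophage markers (55.1 to 69.2 and 57.6 to 81.0 CPM) and markers of Schwann cells and neurons (28.3 to 33.9 and 27.6 to 33.2 CPM) overlapped. Erythroid markers, given above by library, overlapped as well, with the embryonic globin Hbb-y called lower. At the unadjusted level, 1 endothelial marker was higher, 0 macrophage markers differed and 2 erythroid markers were lower. Of the Schwann cell and neuron markers, 2 were higher and 1 lower. The part of these cell types in the levels of the imprinted genes was not tested.

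Other genes around the imprinted ones gave 0 calls. Of 48 further imprinted genes, 42 were tested and 0 were called, where 0.150% of all genes were (edgeR). At an unadjusted p under 0.05 there were 3 (1 higher, 2 lower), or 7.14% beside 9.53% of all genes. Their median log2 change was 0.0074. The smallest p belonged, with log2 changes in parentheses, to Phactr2 (-0.49), Smoc1 (-0.61), Pde10a (0.67) and Slc22a3 (1.11). In IGF and insulin signalling, 0 of 23 genes were called, with a median of -0.033. At the same unadjusted p, 2 were higher and 2 lower, or 17.4% beside 9.53% of all genes. The binding proteins Igfbp7 (1.38) and Igfbp6 (1.38), the adaptor Irs2 (-0.60) and the growth factor Igf1 (-0.47) had the smallest p there, with adjusted p from 0.113 to 0.479. Of 16 tested genes that maintain imprints, 0 were called and the median was -0.012. Setdb1 (-0.56), a histone methyltransferase, Hells (0.46), Zfp57 (-0.46) and the DNA methyltransferase Dnmt3a (-0.18) led by p. Zfp57, the hexamer-binding factor named above, was at 146 ± 54.7 CPM (E16.5) against 107 ± 27.7 CPM (E18.5).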

How the data were processed

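Polyadenylated RNA of fetal mouse hearts was sequenced, 3 libraries at each of E16.5 and E18.5. Per the labels' protocols, the second cDNA strand was marked with dUTP and removed, and adapters carried unique molecular identifiers. Per the submitters' processing notes, the build was mm9 and the tools included StringTie 1.3.4d, HISAT2 2.0.4, cutadapt 1.9 and UMI-tools, with no roles named. No source used here says whether identifiers or strand entered the counting. The table the authors deposited holds an estimated count per gene, in whole numbers, and FPKM, both named in its header. For 99.7% of 11385 genes with over 200 counts in every library, count to FPKM ratios between libraries were within 1% of the median ratio.

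Counts were fitted with edgeR 4.0.16 in R 4.3.3 (filterByExpr, TMM scaling, glmQLFit and glmQLFTest, two-sided, stage as the only term) over 19959 genes, and an adjusted p under 0.05 is a call. Alternatives were DESeq2 1.42.0, RLE size factors, no filter on low counts, the replicate number as a block, mitochondrial genes removed or their share as a term, limma 3.58.1 on log2 FPKM, and each library left out in turn. CPM are TMM-scaled, and the SE is the absolute log2 change over the square root of F. The common biological coefficient of variation was 34.3%. The code was tested on simulated counts. Library totals were 61443414 to 77237333 counts, and counting error weighs most on members of few counts such as Phlda2. Ratios use FPKM + 1. Positions came by identifier from GENCODE M21 (GRCm38), which held all 36, and sequences from RefSeq (GRCm38.p6). Copies were sought with BLAST 2.17.0 at 95% identity over at least 300 bases.

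The members, lists and tests were chosen with earlier results of these data known. Per library values were given for the 10 members with the highest FPKM, the 10 with the smallest p and both genes of each pair. Genes named from other lists are among the 4 with the smallest p, except the cardiomyocyte markers, named to check the tissue; genes that overlap a member are named for their counts. Marker lists, those of neighbouring organs included, were summed per library. Same-numbered libraries were not treated as pairs in the main fit. Their deviations from the stage means correlated at 0.236, 0.328 and -0.0759, and those of differently numbered libraries at -0.41 to 0.25. These values do not settle whether the numbers pair the libraries.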

Additional observations from a re-analysis of the deposited data

How the results depend on the processing

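Across 14 alternatives, 24 of 35 members kept the sign of their log2 change, among them the 9 with an unadjusted p under 0.05. Genes called over the whole table, 30 at first, numbered 408 by DESeq2, 184 with the mitochondrial share as a term, 10 (5 higher, 5 lower) by limma on log2(FPKM + 1) and 14 (7 higher, 7 lower) on log2(FPKM + 0.1). They ran from 8 to 371 with 1 library left out (16, 371 and 8 without E16.5 replicates 1, 2 and 3, and 13, 10 and 12 without those of E18.5). Members called numbered 2 by DESeq2, and 0 to 1 with a library left out. Members with an unadjusted p under 0.05 numbered 3 by limma at either pseudocount (of all genes, 6.66% and 6.74% had one), and 4 to 16 with a library left out, where the share of all genes ran from 5.57% to 23.4%. The median log2 change of the members was 0.0050 and 0.018 by limma at pseudocounts of 1 and 0.1. With a library left out it ran from -0.17 (without E16.5 replicate 1) to -0.0040 (without E16.5 replicate 2), and members without overlap from 9 to 18 with 2 libraries left at a stage (of all genes, 22.4% to 44.0%). On deposited FPKM there were 5 such members, and 11.9% of all genes. With the replicate number as a block, 43 genes and 0 members were called, and the block changed no member's call. The alternatives on unadjusted p and overlap were added after seeing the data.

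The 11 members whose sign turned had log2 changes between -0.23 (Meg3) and 0.20 (Dlk1) at first, and the cause was not tested. Grb10 was at -0.0073, -0.0073, -0.0087, -0.14 by DESeq2, with RLE size factors, with mitochondrial genes removed and with their share as a term, and at -1.2e-04 with no filter. For Trappc9 the first 4 of these gave -0.0067, -0.0066, -0.0085, -0.0081. Impact was at -0.0014, -0.0012, -0.050 with the replicate block, with mitochondrial genes removed and with their share as a term. That share as a term put Meg3 at 0.010, Mest at -0.057 and Zdbf2 at -0.080. By limma, at pseudocounts of 1 and 0.1, Zim1 was at 0.052, 0.059 and Mkrn3 at 0.019, 0.044. The ratio of Kcnq1ot1 to Cdkn1c differed by -0.23 at a pseudocount of 0.1. With 1 library left out, log2 changes ran from -0.046 to 0.52 for Dlk1, -0.17 to 0.36 for Grb10, -0.20 to 0.18 for Impact, -0.57 to 0.084 for Meg3, -0.16 to 0.49 for Mest, -0.38 to 0.22 for Mkrn3, -0.32 to 0.12 for Ndn, -0.28 to 0.50 for Rtl1, -0.12 to 0.12 for Trappc9, -0.19 to 0.23 for Zdbf2, -0.13 to 0.027 for Zim1. Ratio differences ran from -0.12 to 0.27 for Airn over Igf2r, -0.46 to 0.028 for Igf2 over H19, -0.17 to 0.14 for Igf2 over Igf2r, -0.20 to 0.45 for Kcnq1ot1 over Cdkn1c.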

Other observations

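Markers of organs next to the heart were present in all libraries, within ranges that overlapped between stages. The 5 lung markers summed to 91.8 to 158 CPM at E16.5 and 86.2 to 154 CPM at E18.5. Of these, Scgb1a1 was at 50.3 ± 20.7 and 45.8 ± 12.7 CPM, and the surfactant gene Sftpc at 47.1 ± 12.0 and 44.0 ± 18.1 CPM (SD, n = 3). For scale, the member Peg10 averaged 46.8 and 28.7 CPM. The 6 liver markers summed to 35.6 to 84.7 and 28.7 to 102 CPM, the 5 skeletal muscle markers in the table to 5.51 to 6.01 and 3.06 to 5.78 CPM, and the 4 thymus markers in the table to 0.259 to 0.431 and 0.199 to 0.660 CPM. Their part in the levels of the imprinted genes was not tested.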
